A study of Homo sapiens with 2 samples.

Results

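The genes described here carry transforming growth factor-β (TGF-β) signals from the cell surface to the nucleus. They are the receptors TGFBR1 and TGFBR2, the SMAD proteins SMAD1, SMAD2, SMAD3, SMAD4, SMAD5 and SMAD7, and the repressors SKI and SKIL. These 10 genes were taken by symbol from a table of 57773 gene rows, and each was found there. SKIL and SMAD7 were chosen by their values in the libraries compared here, and the other 8 because they belong to the same pathway. The values of these genes are therefore a description and carry no test. RNA was measured in a TGS24 library and a Control library, both from spheroids of the MDA-MB-231 line, human breast cancer cells of the triple-negative kind grown in medium with serum. The TGS24 spheroid was treated with TGS24, which the labels identify by this code alone. The other spheroid is labelled Control, and the labels do not say whether it received a vehicle. The sources used here give neither dose nor duration. Each group held 1 library from 1 cell line, so every difference is a difference between these libraries and has no replicate check. In bulk RNA, fewer cells of a type and less RNA per cell cannot be told apart.

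TGF-β binds TGFBR2, a receptor kinase that phosphorylates and activates TGFBR1. TGFBR1 then phosphorylates SMAD2 and SMAD3, which join SMAD4 and enter the nucleus to regulate genes. SMAD1 and SMAD5 carry the signals of bone morphogenetic proteins (BMPs) in the same way, from other receptors. SMAD7 binds the activated receptor and recruits ubiquitin ligases to it, while SKI and SKIL (also called SnoN) bind SMAD complexes on DNA and recruit co-repressors. SMAD7 and SKIL are known targets of the pathway, which thereby limits itself. In mammary epithelium the pathway is known for growth arrest, and in advanced breast tumours for invasion.

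The table held 16145121 reads for TGS24 and 8570632 for Control, in 21946 and 19041 genes with a read. Marker sums below are raw reads, not scaled for depth, and the TGS24 library was the deeper one. Of the 7 MDA-MB-231 markers 5 could be read, with 2089 reads in sum in TGS24 and 3091 in Control. Each of these 5 had fewer reads in TGS24 than in Control. The deposited tables disagree on the other two, VIM and CD44. The 5 luminal or epithelial markers summed to 58 reads in TGS24 and 49 in Control, the 3 leukocyte markers to 97 and 57, the 3 fibroblast markers to 76 and 52, and the 2 endothelial markers read to 34 and 22. HBB and HBA2, haemoglobin genes, summed to 11955 reads in TGS24 and 5648 in Control. None of the markers read was at 0 in either library, and their part in the results below was not tested.

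Of the 10 genes, SKIL, TGFBR1 and SMAD7 were at least 2-fold higher in TGS24, TGFBR2 was at least 2-fold lower, and the other 6 passed in neither direction. SKIL was 5.70-fold, TGFBR1 5.25-fold and SMAD7 3.46-fold higher, and TGFBR2 was 2.45-fold lower. The ratio is TGS24 over Control on reads scaled by TMM, with a prior count of 2. A gene was counted when its log2 ratio reached 1 in size and 0 lay outside its 95% interval, which covers counting error only. All 10 genes had the 20 reads, over both libraries, needed to be tested. By this rule 12.7% of the 10081 tested genes were higher and 6.31% lower. Nothing is read from the counts of the 10 genes against these shares, since the 10 genes were chosen with this contrast known. The median log2 ratio of the 8 genes not chosen by their values was 0.50, and 0.18 when ratios were centred within classes of genes of like GC content, as described further on. With SKIL and SMAD7 these medians were 0.93 and 0.28.

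**Figure D1:**
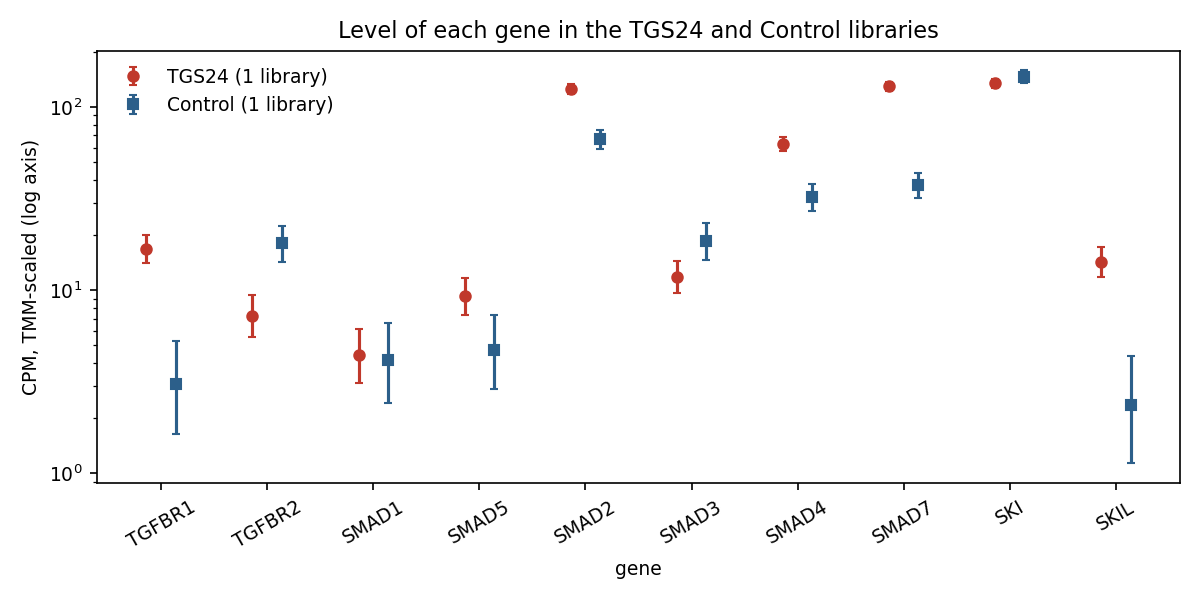
Level of each gene in CPM, TMM-scaled, on a log axis, with 95% Poisson intervals on read pairs; circles are the TGS24 library and squares the Control library. The intervals of the libraries lie apart for TGFBR1, TGFBR2, SMAD2, SMAD3, SMAD4, SMAD5, SMAD7 and SKIL, with TGS24 lower for TGFBR2 and SMAD3, and overlap for SMAD1 and SKI.

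The receptor genes stood in opposite directions. TGFBR1 (ENSG00000106799), the type I receptor that phosphorylates SMAD2 and SMAD3, had 274 reads in TGS24 and 26 in Control. Scaled to a common library total as CPM, this is 16.8 CPM in TGS24, with an interval from 14.1 to 19.9, and 3.08 in Control, with an interval from 1.64 to 5.27. The log2 ratio was 2.39, and its interval ran from 1.63 to 3.40. TGFBR1 thus lay far higher in TGS24, with no overlap of the intervals. TGFBR2 (ENSG00000163513), the ligand-binding type II receptor, had 118 reads in TGS24 and 152 in Control, although the TGS24 library was the deeper one. Its level was 7.26 CPM in TGS24, with an interval from 5.52 to 9.36, and 18 in Control, with an interval from 14.2 to 22.5. The log2 ratio was -1.29, with an interval from -1.83 to -0.80.

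The share of each receptor within a library does not depend on the scaling between libraries. Like the other shares below, it is not adjusted for GC content. The median log2 ratio of the GC class, described further on, was 0.71 for TGFBR1 and 0.004 for TGFBR2. TGFBR1 took 69.9% of the reads of both receptor genes in TGS24, with a 95% Clopper-Pearson interval from 63.0% to 76.2%. In Control it took 14.6%, with an interval from 8.01% to 23.7%. Per kilobase of exon, TGFBR1 stood above TGFBR2 in TGS24, at 2.46 against 1.54 CPM per kilobase. In Control TGFBR1 stood below TGFBR2, at 0.450 against 3.83 CPM per kilobase. The order of the receptors was thus reversed between the libraries.

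**Figure D2:**
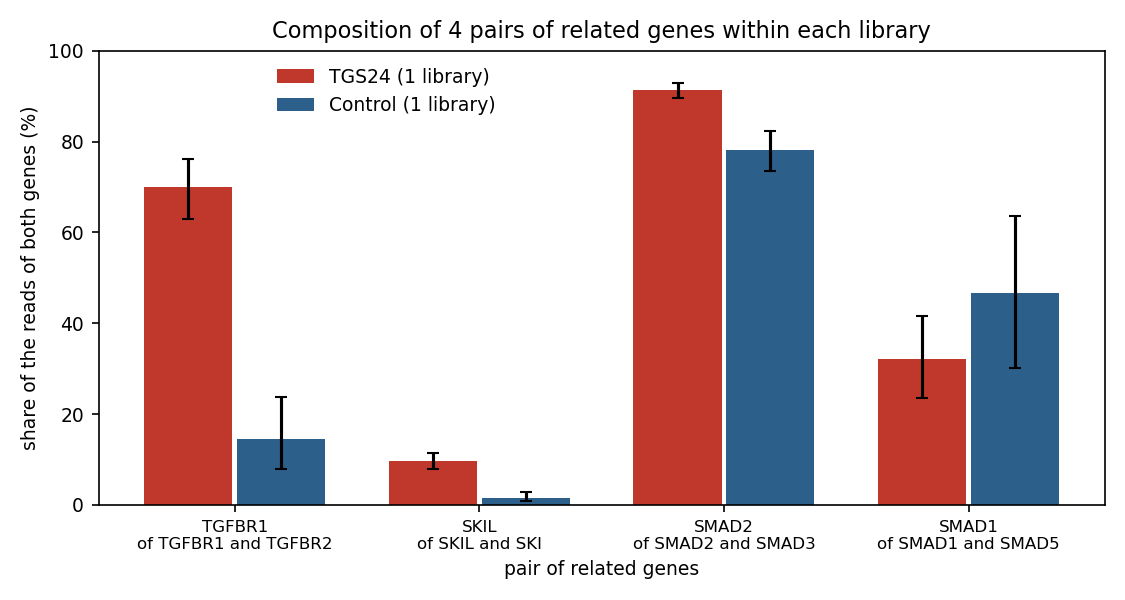
Share of the reads of 2 related genes, in percent, that falls on the first gene named under each pair of bars, for 4 pairs, with 95% Clopper-Pearson intervals on read pairs. The shares are not adjusted for GC content. TGFBR1 and SKIL take a larger share in TGS24 than in Control, SMAD2 takes 91.4% in TGS24 and 78.2% in Control, and the intervals overlap for SMAD1.

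Among the SMADs that receptors phosphorylate, none passed the 2-fold threshold. SMAD2 (ENSG00000175387), which carries TGF-β and activin signals, had 2039 reads in TGS24 and 563 in Control. Its log2 ratio was 0.91, with an interval from 0.72 to 1.11. SMAD3 (ENSG00000166949), its partner, which binds DNA directly, had 193 reads in TGS24 and 157 in Control. Its log2 ratio was -0.64, with an interval from -1.09 to -0.20. SMAD2 and SMAD3 therefore leaned in opposite directions. Centred within GC classes, as described further on, SMAD2 stood at 0.25 and SMAD3 at -0.43. The centred interval of SMAD3, from -0.88 to 0.009, held 0. SMAD2 took 91.4% of the reads of both genes in TGS24, with an interval from 89.5% to 92.9%, and 78.2% in Control, with an interval from 73.6% to 82.4%.

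Per kilobase, the BMP-regulated SMADs were the least expressed of the 6 SMAD genes in both libraries. SMAD5 (ENSG00000113658) had 152 reads in TGS24 and 40 in Control, giving a log2 ratio of 0.96 (interval 0.25 to 1.77). SMAD1 (ENSG00000170365) had 72 reads in TGS24 and 35 in Control, a log2 ratio of 0.09. Its interval ran from -0.77 to 1.01 and held 0, so neither direction can be read from it. SMAD1 took 32.1% of the reads of both genes in TGS24, with an interval from 23.6% to 41.6%, and 46.7% in Control, with an interval from 30.2% to 63.6%. These intervals overlap. Antisense genes whose exons overlap SMAD1 and SMAD5 in GENCODE v29, SMAD1-AS1 and SMAD5-AS1, had 0 reads in both libraries.

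SMAD4 (ENSG00000141646), the partner shared by the TGF-β and BMP branches, had 1023 reads in TGS24 and 271 in Control. Its level was 62.9 CPM in TGS24 and 32.1 in Control, giving a log2 ratio of 0.97 (interval 0.69 to 1.25). SMAD2, SMAD4 and SMAD5 thus lay just under the 2-fold threshold, between 1.88-fold and 1.96-fold higher. With no filter on low counts, which moved the median of all genes to 0.16, they passed it. With TMM factors over genes with at least 100 reads, which moved that median to -0.16, SMAD2, SMAD4 and SMAD5 stood at 0.75, 0.80 and 0.80.

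SMAD7 (ENSG00000101665), the inhibitory SMAD, had 2105 reads in TGS24 and 315 in Control. Its level was 129.4 CPM in TGS24, with an interval from 122 to 137, and 37.3 in Control, with an interval from 31.7 to 43.6. The log2 ratio was 1.79, with an interval from 1.55 to 2.05, and the intervals of the levels lay far apart. A ratio at least as high was held by 2.77% of all tested genes, SMAD7 included, but SMAD7 was chosen by its values here. Of the reads of all 6 SMAD genes, 5584 in TGS24 and 1381 in Control, SMAD7 took 37.7% in TGS24, with an interval from 35.9% to 39.5%, and 22.8% in Control, with an interval from 19.7% to 26.1%. SMAD3 took 3.46% of this pool in TGS24, with an interval from 2.81% to 4.20%, and 11.4% in Control, with an interval from 9.10% to 13.98%. SMAD4 took 18.3% in TGS24 and 19.6% in Control, with overlapping intervals.

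The repressor genes differed from each other. SKIL (ENSG00000136603) had 232 reads in TGS24 and 20 in Control, or 14.3 and 2.37 CPM, with intervals from 11.8 to 17.1 in TGS24 and from 1.14 to 4.36 in Control. Its log2 ratio of 2.51 (interval 1.66 to 3.69) was the highest of the 10 genes before GC centring, after which SMAD7 stood highest, at 2.14, and TGFBR1 and SKIL lay at 1.68 and 1.66. Its interval was the widest of the 10, on 20 Control reads. Of all tested genes 58, SKIL included, had a ratio at least as high, but SKIL was chosen by its values here. SKI (ENSG00000157933), its relative, had 2190 reads in TGS24 and 1236 in Control, or 134.7 and 146.4 CPM. The SKI log2 ratio was -0.12, with an interval from -0.26 to 0.02. SKIL took 9.58% of the reads of both repressor genes in TGS24, with an interval from 7.98% to 11.4%, and 1.59% in Control, with an interval from 0.766% to 2.91%. SKI thus held most reads in both libraries, and SKIL a larger share of them in TGS24.

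Per kilobase of exon in GENCODE v29, SKI and SMAD7 had the highest levels in both libraries, and they changed places. SMAD7 had 25.7 CPM per kilobase in TGS24 and 7.41 in Control, and SKI 22.1 in TGS24 and 24.1 in Control. SKIL had the lowest level of the 10 in Control, at 0.304, and stood at 1.83 in TGS24. SMAD1 had the lowest in TGS24, at 0.731, against 0.684 in Control. The rank of SMAD2 depends on its length. Over its 36366 annotated exon bases it had 3.45 in TGS24 and 1.83 in Control. Over its second-longest coding transcript, of 12075 bases, it had 10.4 in TGS24 and 5.52 in Control.

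**Figure D3:**
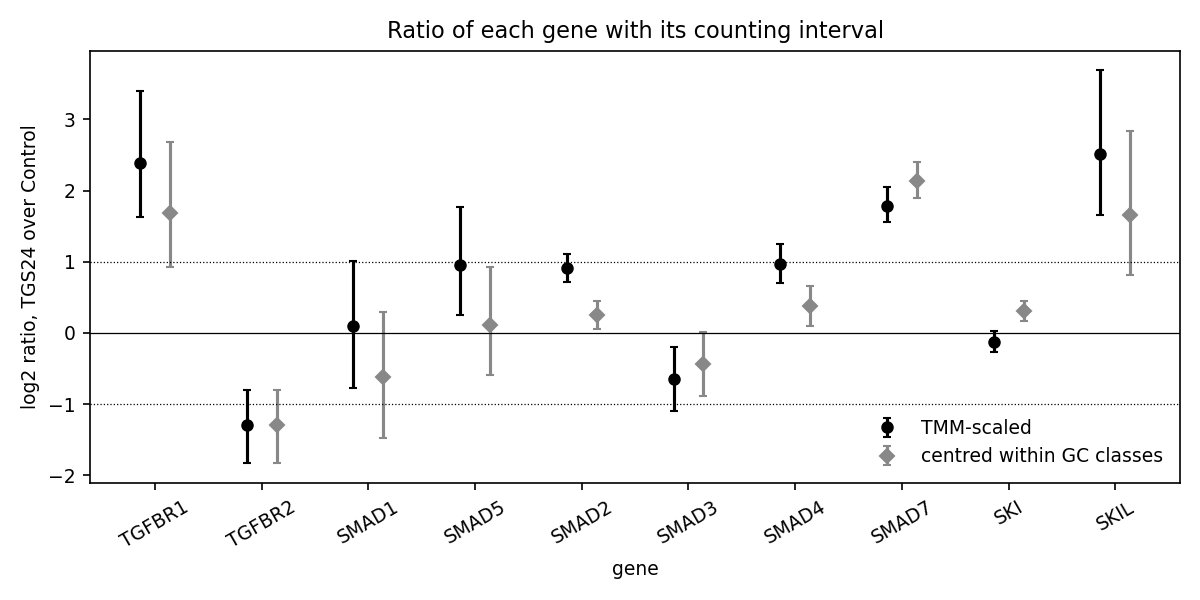
Log2 ratio of TGS24 over Control for each gene, with its 95% counting interval; circles are TMM-scaled ratios, diamonds the same ratios centred within GC classes, and dotted lines mark 1 and -1. TGFBR1, SMAD7 and SKIL stay above 1 and TGFBR2 below -1 in both, while SMAD2, SMAD4 and SMAD5 move towards 0 when centred.

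Log2 ratios in these libraries went with the GC content of the transcripts. Over 20 classes of about 498 genes each, the class median was 0.85 in the class lowest in GC and -0.43 in the highest. SKIL, with 33.4% GC, and SMAD5, with 36.9%, fell into the lowest class. Centred on the class median, SKIL stood at 1.66, with an interval from 0.81 to 2.84, and TGFBR1, with 39.0% GC, at 1.68, with an interval from 0.92 to 2.69. SMAD2 then stood at 0.25, SMAD4 at 0.37 and SMAD5 at 0.11, with an interval for SMAD5 from -0.60 to 0.92. Centred in this way, 5.4% of 9961 genes with a GC value were higher and 5.98% lower, and of the 10 genes the same 3 were higher and TGFBR2 lower. The part of GC content in these ratios was not tested.

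SMAD7 went against this trend. Its longest transcript has 58.7% GC, the median ratio of its GC class was -0.35, and its centred ratio was 2.14, with an interval from 1.90 to 2.40. Of the 498 genes in that class, 4 had a ratio at least as high, SMAD7 included. For SKIL this number was 10 of 499 and for TGFBR1 5 of 498. SMAD7 and SKIL were chosen by their values in this contrast, so their ranks are only a description. TGFBR2, with 47.4% GC and a class median of 0.004, was at -1.30 when centred, and 16 of the 498 genes of its class had a ratio at least as low. SKI, with 59.95% GC, was at 0.31, with an interval from 0.17 to 0.46, so its direction depends on the centring.

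**Figure D4:**
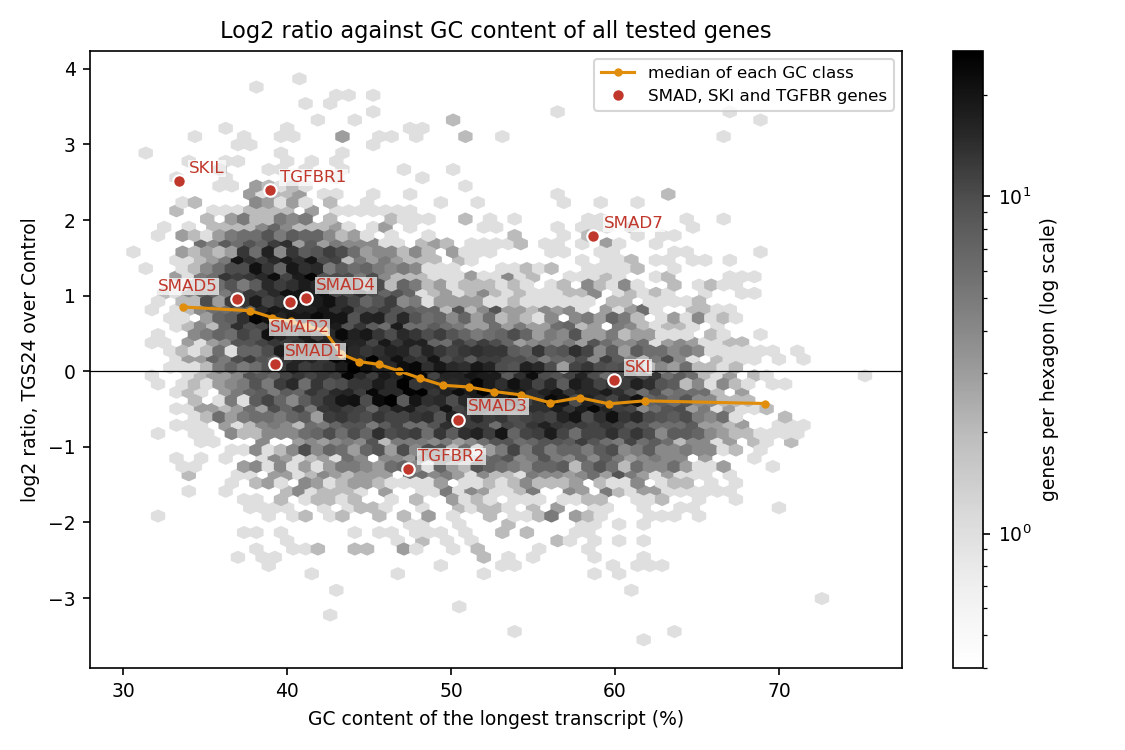
Log2 ratio of TGS24 over Control against GC content of the longest transcript, in percent, for all tested genes as hexagons shaded by number of genes; the line joins the class medians and labelled points are the 10 genes. SMAD7 lies at 1.79 where the class median is -0.35, and SKIL and TGFBR1 lie above medians that are themselves above 0.

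The deposited tables differ in how they carry these genes. In the authors' deposited table of filtered genes all 10 genes have the same values as in the table of all genes. The limit for a higher call, the mean plus 2 SD of the log2 values, is given as 2.01 in the authors' deposited table of filtered genes. The authors' deposited table of called genes lists SKIL as higher, with a log2 ratio of 2.60, and no other of the 10 genes by name. SMAD7, at 1.80 in the authors' deposited table of filtered genes, lies under the limit. TGFBR1, at 2.46 in the authors' deposited table of filtered genes, lies over it, yet the authors' deposited table of called genes does not list its identifier. The values of TGFBR1, 138.6 in TGS24 and 25.2 in Control, fill the row of TGFB1 (ENSG00000105329), the ligand gene, which the authors' deposited table of called genes gives as higher. The authors' deposited table of all genes holds both of these values for no gene other than TGFBR1.

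For TGFB1 the authors' deposited table of all genes gives 68.3 in TGS24 and 26.8 in Control. These are not whole numbers of reads, so no ratio for the ligand is given. SMAD6, the other inhibitory SMAD, stands in 2 rows of the authors' deposited table of all genes, with 319 reads in TGS24 and 149 in Control in one and 73 and 76 in the other. The authors' deposited table of called genes gives SMAD6 as lower, on values that correspond to 2 reads in TGS24 and 6 in Control. SMAD9, a further BMP-regulated SMAD, likewise has 2 rows of the authors' deposited table of all genes, with 6 reads in TGS24 and 16 in Control in one and 23 and 14 in the other. Neither gene has a single value, so both were left out of the comparison.

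The sequences before the start sites of the receptor genes, SMAD7 and SKIL are shown because these 4 genes passed the threshold. They are 250 bases, 5′ to 3′ on the gene's strand, from RefSeq on GRCh38.p14, for the start listed first for each gene. Capitals mark CAGAC or its complement GTCTG, the short SMAD-binding element, and TGACGTCA, the binding sequence of CREB and ATF factors, which was chosen after the sequences were seen.
SKIL: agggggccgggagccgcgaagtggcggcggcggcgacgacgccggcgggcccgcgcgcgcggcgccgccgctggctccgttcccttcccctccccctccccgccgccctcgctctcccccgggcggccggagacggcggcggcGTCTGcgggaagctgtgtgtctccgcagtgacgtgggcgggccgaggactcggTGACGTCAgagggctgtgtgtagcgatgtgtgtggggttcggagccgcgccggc
SMAD7: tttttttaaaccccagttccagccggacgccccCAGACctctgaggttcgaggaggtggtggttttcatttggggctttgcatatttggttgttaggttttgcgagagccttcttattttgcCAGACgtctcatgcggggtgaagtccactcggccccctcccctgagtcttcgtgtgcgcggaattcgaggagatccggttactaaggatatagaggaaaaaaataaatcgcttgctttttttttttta
TGFBR1: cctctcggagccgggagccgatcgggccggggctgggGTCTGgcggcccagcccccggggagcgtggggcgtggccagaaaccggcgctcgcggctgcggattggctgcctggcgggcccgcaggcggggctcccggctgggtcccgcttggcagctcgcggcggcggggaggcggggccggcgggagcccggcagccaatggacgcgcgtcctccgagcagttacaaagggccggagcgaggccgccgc
TGFBR2: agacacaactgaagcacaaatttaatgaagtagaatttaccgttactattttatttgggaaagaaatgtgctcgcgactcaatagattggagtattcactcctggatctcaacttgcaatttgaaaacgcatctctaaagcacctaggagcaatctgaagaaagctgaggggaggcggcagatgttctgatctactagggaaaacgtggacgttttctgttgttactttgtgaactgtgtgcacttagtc

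The windows lie at chr3:170357465-170357714 on the plus strand for SKIL, chr18:48950966-48951215 on the minus strand for SMAD7, chr9:99104863-99105112 on the plus strand for TGFBR1 and chr3:30606106-30606355 on the plus strand for TGFBR2. CAGAC or GTCTG occurs 2 times in the SMAD7 window, at 217 and 128 bases before the start, and 1 time each in those of SKIL, at 107, and TGFBR1, at 213. It does not occur in the TGFBR2 window, nor in those of SMAD1, SMAD2, SMAD3, SMAD4 and SMAD5. Only the start listed first was searched for it, and several genes have more listed starts, with 8 for TGFBR1, 3 for SMAD7 and 2 for TGFBR2. Of 27305 promoter windows of the same length, 37.8% hold it on either strand. TGACGTCA starts 54 bases before the SKIL start and is held by 1.77% of the windows. The palindrome GTCTAGAC, a strong SMAD-binding element, is in no member's window at the first listed start and in 0.176% of all. Sequence outside windows of 250 bases was not searched, so an element elsewhere in these promoters would be missed. SKI is not in the table of windows. The windows differ in base composition, with 78.4% GC for SKIL, 79.6% for TGFBR1, 48.0% for SMAD7 and 40.8% for TGFBR2, against a median of 58.0%. A match is a description of letters, not evidence of binding.

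Around the 10 genes, 8 lists of 128 pathway genes were read, and 86 of these genes were tested. Of these 86, 14 were at least 2-fold higher and 8 lower, or 16.3% and 9.30%, against 12.7% and 6.31% of all tested genes. Medians below stand against -0.004 for all tested genes. Pairs of read numbers below are TGS24 and then Control.

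Ligands and the proteins that hold them latent had a median log2 ratio of -0.70, and of -0.39 when centred within GC classes. Of the 10 tested, 4 were lower and none higher, 9 were under 20 reads and TGFB1 was left out. THBS1, which activates latent TGF-β, was 2.27-fold lower, on 11367 and 13409 reads. INHBB and INHBA, which encode activin subunits, were 2.69-fold and 5.66-fold lower, on 668 and 934 and on 6 and 24 reads. On so few reads the log2 ratio of INHBA depends on the prior count, and was -2.50 with 2 and -1.78 with 8. BMP1, a protease that releases ligands and matures collagen, was 2.96-fold lower, on 490 and 756 reads. GDF11, an activin-like ligand, had a log2 ratio of -0.32, on 1497 and 970 reads. All 4 lower genes stayed past the threshold when centred within GC classes, where THBS1 stood at -1.27, INHBB at -1.01, BMP1 at -1.17 and INHBA at -3.21. Among 4 tested inhibitors of ligands, FSTL1, a follistatin-like glycoprotein, was 2.30-fold lower, on 48 and 59 reads, and the median was -0.72, or -1.11 when centred. FST, which traps activin, had a log2 ratio of -0.80, on 934 and 844 reads.

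Of 8 other tested receptor genes, 1 was higher and 1 lower, with a median of 0.20 that turned to -0.016 when centred within GC classes. BMPR2, the type II receptor for BMPs, was 3.46-fold higher, on 967 and 144 reads, the same fold as SMAD7. ACVR1B, the type I activin receptor, was 2.27-fold lower, on 69 and 83 reads. ACVR2A, a type II activin receptor, had a log2 ratio of 0.48, on 658 and 244 reads, which turned to -0.23 when centred. Neither type I nor type II genes therefore had a common direction before centring. Among type II genes BMPR2 was higher and TGFBR2 lower, and among type I genes TGFBR1 was higher and ACVR1B lower. Centred within GC classes, BMPR2 at 0.99 and ACVR1B at -0.91 no longer passed.

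Genes for ubiquitin ligases, deubiquitinases and anchors of SMADs and receptors had a median of 0.48, or 0.10 when centred within GC classes, with 7 of 21 higher and 1 lower. WWP1, a ubiquitin ligase that acts with SMAD7 on TGFBR1, was 4.82-fold higher, on 483 and 51 reads. TRIM33, a ligase that binds SMAD4, was 3.22-fold higher, on 3148 and 506 reads, and USP9X, which removes ubiquitin from SMAD4, 2.90-fold, on 18657 and 3340 reads. USP15, a deubiquitinase of the receptor complex, was 2.28-fold higher. RNF111 (Arkadia), a ligase that marks SMAD7, SKI and SKIL for degradation, was 2.15-fold higher, on 557 and 134 reads. ZFYVE9 (SARA), which brings SMAD2 and SMAD3 to the receptor, was 2.17-fold higher, and the cullin CUL1 2.25-fold. The deubiquitinase USP11 was 2.19-fold lower, on 53 and 62 reads. Centred within GC classes, WWP1 at 1.56, CUL1 at 1.04 and ZFYVE9 at 1.02 still passed. TRIM33 at 0.98, USP9X at 0.88, USP15 at 0.34, RNF111 at 0.56 and USP11 at -0.72 did not.

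Nuclear partners had a median of 0.50, or 0.44 when centred within GC classes, with 2 of 18 tested genes higher and none lower. NCOR1, a co-repressor that SKI and SKIL bring to SMAD targets, was 3.15-fold higher, on 13318 and 2193 reads, and stood at 1.57 when centred within GC classes. RBL1 (p107), which joins SMAD3 in repressing genes, was 2.36-fold higher, on 149 and 32 reads, and stood at 0.58 when centred. ZEB2, a SMAD-binding repressor, had a log2 ratio of 0.99, on 8849 and 2310 reads. ZEB2 stood at 0.28 when centred, and passed the threshold at 1.02 when scaled by library totals and at 1.15 when low counts were not filtered. In the TAK1 branch, by which TGF-β receptors reach stress kinases, 3 of 7 tested genes were higher and none lower, with a median of 0.997, or 0.55 when centred. TAB3, an adaptor of TAK1, was 3.11-fold higher, on 497 and 82 reads. XIAP at 1.45 and MAP3K7, which encodes TAK1, at 1.30 on the log2 scale also passed. Centred within GC classes, TAB3 stood at 0.93, XIAP at 0.75 and MAP3K7 at 0.59, and none of the 3 passed.

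Known targets of TGF-β and BMPs, read without SMAD7 and SKIL, had a median of -0.31, with 1 of 18 tested genes higher, 1 lower and 12 others under 20 reads. Centred within GC classes the median turned to 0.080, with none higher and 2 lower, PTHLH and FN1. SNAI2, a repressor of epithelial genes, was 2.29-fold higher, on 74 and 16 reads, and stood at 0.60 when centred within GC classes. PTHLH, which encodes a hormone that drives bone resorption, was 4.48-fold lower, on 16 and 42 reads, and stood at -2.07 when centred. TSC22D1 and JUNB, the targets with the most reads, had log2 ratios of -0.75, on 4120 and 3591 reads, and -0.28, on 952 and 601 reads, the JUNB value turning to 0.15 when centred. The other 14 tested targets, among them the matrix genes FN1 and COL1A1 and the BMP targets ID2 and ID3, passed in neither direction before centring.

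**Figure D5:**
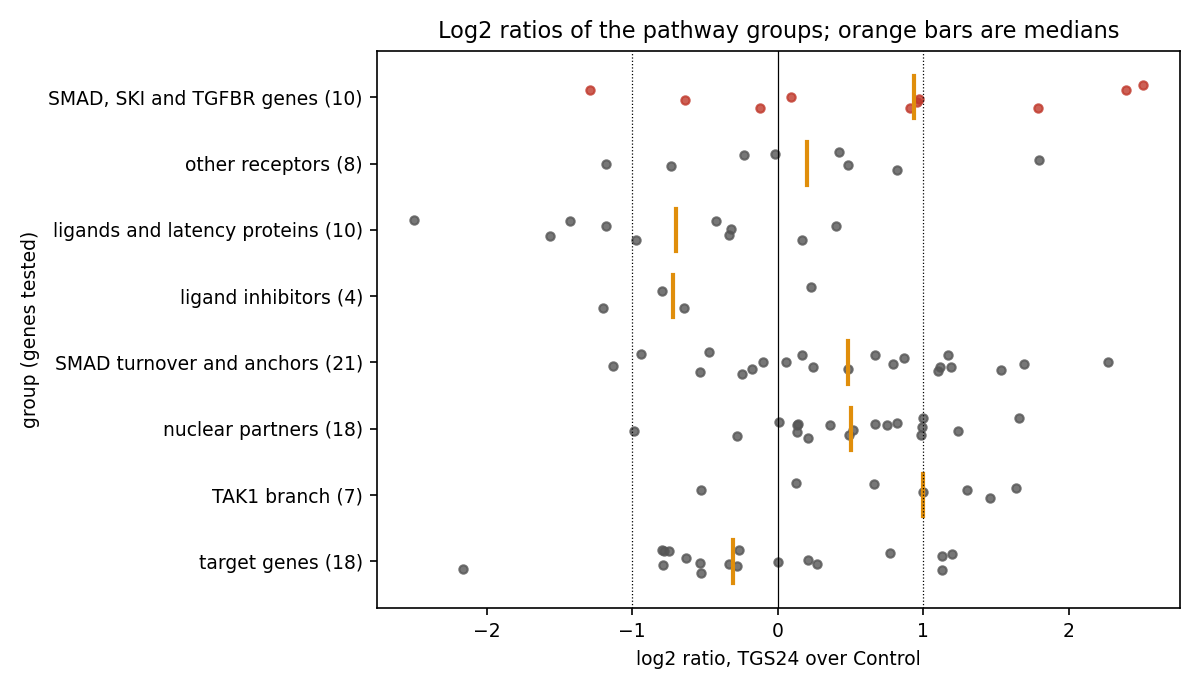
Log2 ratios of TGS24 over Control for the tested genes of each pathway group, with the number of genes in brackets; each point is a gene, orange bars are medians, dotted lines mark 1 and -1, and a point past a line was counted only if its interval left out 0. The SMAD, SKI and TGFBR genes spread from -1.29 to 2.51, and the medians of the ligands, at -0.70, and of the targets, at -0.31, lie below 0 here. Centred within GC classes, which is not drawn, they are -0.39 for the ligands and 0.080 for the targets.

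The genes nearest to SKIL in level in both libraries, by distance in log2 CPM over these 2 libraries among genes with at least 100 reads, were CDC73, SPOCK3 and ZNF639. Their log2 ratios were 2.66, 2.35 and 2.49. Those nearest to SMAD7 were HSPD1P1, SBNO1 and DNAJC13, with 1.76, 1.65 and 1.79. Ratios close to those of SKIL and SMAD7 follow from this choice, since genes near in both levels have a similar ratio. HSPD1P1 is a pseudogene that shares sequence with HSPD1, so its reads are uncertain. The 3 genes near SMAD7 had between 41.4% and 41.9% GC, against 58.7% for SMAD7.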

How the data were processed

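RNA-seq of 1 TGS24 and 1 Control library was used. The authors deposited a normalized signal in 3 tables, read counts of genes over a size factor for each library, with their ratio (fold change) and log2 value in 2 of them. Per the submitters' processing notes, the tools were DESeq2, featureCounts 1.5.2, STAR, Bowtie2 2.2.4 and Trimmomatic, with no role or order, on hg19. Strand handling is not given in the sources used here. A read was worth 0.506 in TGS24 and 0.969 in Control, and 99.98% of values in each library were whole multiples of this step (relative tolerance 1e-06). Most counts were even, 73.5% of those above 0 in TGS24 and 75.3% in Control, as when both mates are counted, so intervals were computed on read pairs. Irregular rows (48: repeated, out of order, not whole, or different between tables) were left out, with 0.619% of TGS24 and 0.676% of Control reads. A count test on recovered reads was not run, since 1 library per group gives no residual spread.

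TMM factors came from edgeR 4.0.16 in R 4.3.3. Log2 ratios used a prior count of 2 over 10081 genes with at least 20 reads, and 95% Clopper-Pearson intervals conditional on the total of read pairs, which cover counting error only. GC content and exon length came from GENCODE v29 on GRCh38 by Ensembl identifier, for 98.8% of tested genes. The design fixed at the start gave every result as a description without a test. Steps were tested on simulated data. Members, lists and alternatives were chosen with earlier results of these data known. Named list genes are those past the threshold and the 2 with the most reads per list. Other genes are named after their values were seen. The software was pandas 2.3.3, scipy 1.17.1 and numpy 2.4.6 under Python 3.11.15.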

Additional observations from a re-analysis of the deposited data

How the results depend on the processing

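SKIL, TGFBR1, SMAD7 and TGFBR2 kept their direction and passed the 2-fold threshold under every alternative run to the scaling, prior count, filter, gene classes and GC content. The alternatives to the call rule and source table could not change this and are no check. The call rules dropped or narrowed the interval and left the log2 ratios as they were, and rows that differed between tables had been left out. SKIL and SMAD7 were also chosen by their values here. Their log2 ratios ran from 1.66 to 2.66 for SKIL, from 1.68 to 2.55 for TGFBR1, from 1.63 to 2.14 for SMAD7 and from -1.45 to -1.13 for TGFBR2. The number of the 10 genes at least 2-fold higher was 3, and 6 with no filter on low counts, where SMAD2, SMAD4 and SMAD5 stood at 1.07, 1.13 and 1.11 and the median of all genes at 0.16. Among single genes, those whose direction turned had not passed. When centred within GC classes, the list medians of the targets, at 0.080, and of the other receptors, at -0.016, turned as well. SMAD1 was at -0.066 with TMM factors over genes with at least 100 reads and with that filter, and at -0.62 when centred within GC classes. SKI was at 0.040 with no filter on low counts and at 0.31 when centred. ACVR2A was at -0.23 and JUNB at 0.15 when centred. SNAI2, ZFYVE9 and RNF111, at 1.04, 0.95 and 0.94 with TMM factors over genes with at least 100 reads, no longer passed there, the interval of SNAI2 holding 0. Of all called genes 66.8% were higher, 51.6% with TMM factors over genes with at least 100 reads, which moved the median of all genes to -0.16, and 47.4% when centred within GC classes. Causes were not tested. No paired analysis was possible because each group holds 1 library. Control reads were few for SKIL, TGFBR1, SMAD1 and SMAD5, at 20, 26, 35 and 40, and their intervals were the widest of the 10.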

Other observations

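Some pathway genes short of the 2-fold threshold passed it when ratios were centred within GC classes, found after their values were seen. The histone acetyltransferase gene EP300, a co-activator of SMADs, stood at 1.27 against 0.9985 before centring, on 1511 reads in TGS24 and 392 in Control. AXIN1, a scaffold that binds SMAD3 and SMAD7, stood at 1.10 against 0.67, on 72 reads in TGS24 and 23 in Control. The SMAD co-repressor gene TGIF1 stood at -1.58 against -0.99, on 51 reads in TGS24 and 54 in Control, and the fibronectin gene FN1 at -1.07 against -0.53, on 353 reads in TGS24 and 266 in Control.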
